A study of Rattus norvegicus with 18 samples.

Results

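The genes of cholesterol synthesis, uptake, storage and efflux were followed through ovulation in rat ovarian follicles, and through its block by either of 2 drugs. Of 35 genes listed for these roles, 33 were measured, among 14217 genes that the arrays represented. A gene was taken through the probe set with the highest mean signal among those that the platform annotation pairs with its symbol alone; for Hmgcs1, the first enzyme that commits carbon to the pathway, and Npc1, which lets cholesterol out of lysosomes, no such probe set was found. The measured genes comprised 18 of synthesis, 5 that control it, 3 of uptake and transport inside the cell, 2 of storage and 5 of efflux.

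Follicles were cut by laser from frozen 8-micrometre ovary sections of Crl:CD(SD) rats, 15 follicles per phase, and hybridized to 18 Affymetrix arrays, 3 in each of 6 groups. Untreated rats gave follicles before rupture at 22:00 of proestrus (control PeF) and ruptured follicles at 10:00 of estrus (control PoF). Indomethacin, which inhibits the cyclooxygenases that make prostaglandins, was given once by mouth at 4 mg/kg at 16:00 of proestrus. RU486 (mifepristone), which blocks the progesterone receptor and also the glucocorticoid receptor, was given once by mouth at 100 mg/kg at 10:00 of proestrus. Treated follicles were taken at the same 2 times (IM PeF and RU PeF at proestrus, IM UF and RU UF at estrus), and those of estrus had not ruptured. At estrus, drug and failure to rupture cannot be told apart, and the drugs were given at different hours. The labels give 3 animals per treatment and time but no age, and they do not tie samples to animals, so the p-values here reflect spread among samples, which may be partly technical. The titles call the follicles of proestrus peri-ovulatory, whereas the design text calls them pre-ovulatory.

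Cholesterol is built from acetyl-CoA through mevalonate and squalene, and the genes of its enzymes are switched on together by the sterol regulatory element-binding proteins (SREBPs, from Srebf1 and Srebf2). When membranes hold enough sterol, the proteins encoded by Insig1 and Insig2 keep the SREBPs and their escort Scap in the endoplasmic reticulum. When sterols abound, the liver X receptors (Nr1h2 and Nr1h3) switch on the export genes Abca1, Abcg1 and Apoe. In the ovary cholesterol is the raw material of steroid hormones, and follicle cells obtain it both from lipoproteins and from their own synthesis.

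Values are quantile-normalized log2 signals, and a difference is given in log2 units with its standard error (SE). A gene is said to rise or fall, or is called, where its adjusted p from limma, over all tested probe sets, was under 0.05. The deposited signals were not on a common level: the median signal of an array ran from 4.4 (control PeF 3) to 27.4, and 3 arrays (control PeF 3, IM UF 2 and IM PeF 2) were the dimmest. Control probe sets for the 3′ end of Gapdh exceeded those for its 5′ end by 2.07 to 4.11 log2 units, with 2.07 to 2.31 in control PoF, 2.86 to 3.27 in RU UF, 2.96 to 4.11 in control PeF and 2.66 to 2.95 in RU PeF; the part of this spread in the results was not tested. The tissue held granulosa markers on every array, with a summed log2 signal of 14.0 to 14.8 over 11 genes, none of them at background. Fewer cells of a type and less RNA per cell cannot be told apart in such samples. All 33 members were tested, and none was at background on all 3 arrays of a group.

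For 15 of 18 synthesis genes the highest group mean was that of the unruptured follicles of RU486-treated rats at estrus; Idi1 and Nsdhl were highest in RU PeF and Ggps1 in control PeF. Against ruptured control follicles, 15 of 18 synthesis genes rose and none fell, with a median difference of 1.52, while 4.53% of 10386 tested genes rose and 5.49% fell, with a median of -0.04. Over all 33 members 19 rose and none fell. The largest differences were those of Hsd17b7, which reduces the sterol keto group, Tm7sf2, a sterol reductase, Lss, which closes squalene epoxide into lanosterol, and Mvd, which makes isopentenyl diphosphate. No efflux gene was called, and the efflux median was -0.85, with 3 genes below 0 and 2 above.

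At proestrus Hsd17b7 lay at 7.41, 7.40 and 8.70 on the control arrays, 7.33, 7.06 and 7.51 with indomethacin and 8.42, 8.43 and 7.94 with RU486. At estrus Hsd17b7 lay at 8.47, 8.47 and 7.86 on the control arrays, 9.16, 9.56 and 9.41 with indomethacin and 10.92, 11.12 and 11.10 with RU486. All 3 RU UF arrays lay above every other array, and the difference from control PoF was 2.78 ± 0.27, adjusted p = 8.49e-06, or 6.88-fold. At proestrus Tm7sf2 was at 6.00, 6.05 and 5.35 on the control arrays, 6.04, 6.00 and 6.27 with indomethacin and 6.45, 6.79 and 6.76 with RU486. At estrus Tm7sf2 was at 7.16, 7.35 and 7.06 on the control arrays, 7.90, 7.92 and 8.19 with indomethacin and 9.39, 9.92 and 9.89 with RU486. The RU UF arrays again stood above all others, by 2.55 ± 0.20, adjusted p = 1.10e-06 over control PoF. At proestrus Lss measured 7.05, 7.62 and 7.31 on the control arrays, 8.31, 7.42 and 7.95 with indomethacin and 7.77, 8.35 and 8.28 with RU486. At estrus Lss measured 8.24, 7.76 and 7.67 on the control arrays, 7.77, 7.93 and 8.47 with indomethacin and 10.14, 10.16 and 10.02 with RU486. Lss lay between 7.05 and 8.47 in the other 5 groups, and all 3 RU UF arrays lay above that range (2.22 ± 0.24, adjusted p = 1.68e-05 against control PoF). At proestrus Mvd stood at 7.67, 8.06 and 8.21 on the control arrays, 8.05, 8.05 and 8.18 with indomethacin and 8.38, 8.32 and 8.38 with RU486. At estrus Mvd stood at 7.63, 8.16 and 7.24 on the control arrays, 8.39, 8.98 and 8.95 with indomethacin and 9.21, 9.88 and 9.61 with RU486. Mvd in RU UF exceeded all other arrays, with a difference of 1.89 ± 0.22, adjusted p = 3.44e-05.

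**Figure D1:**
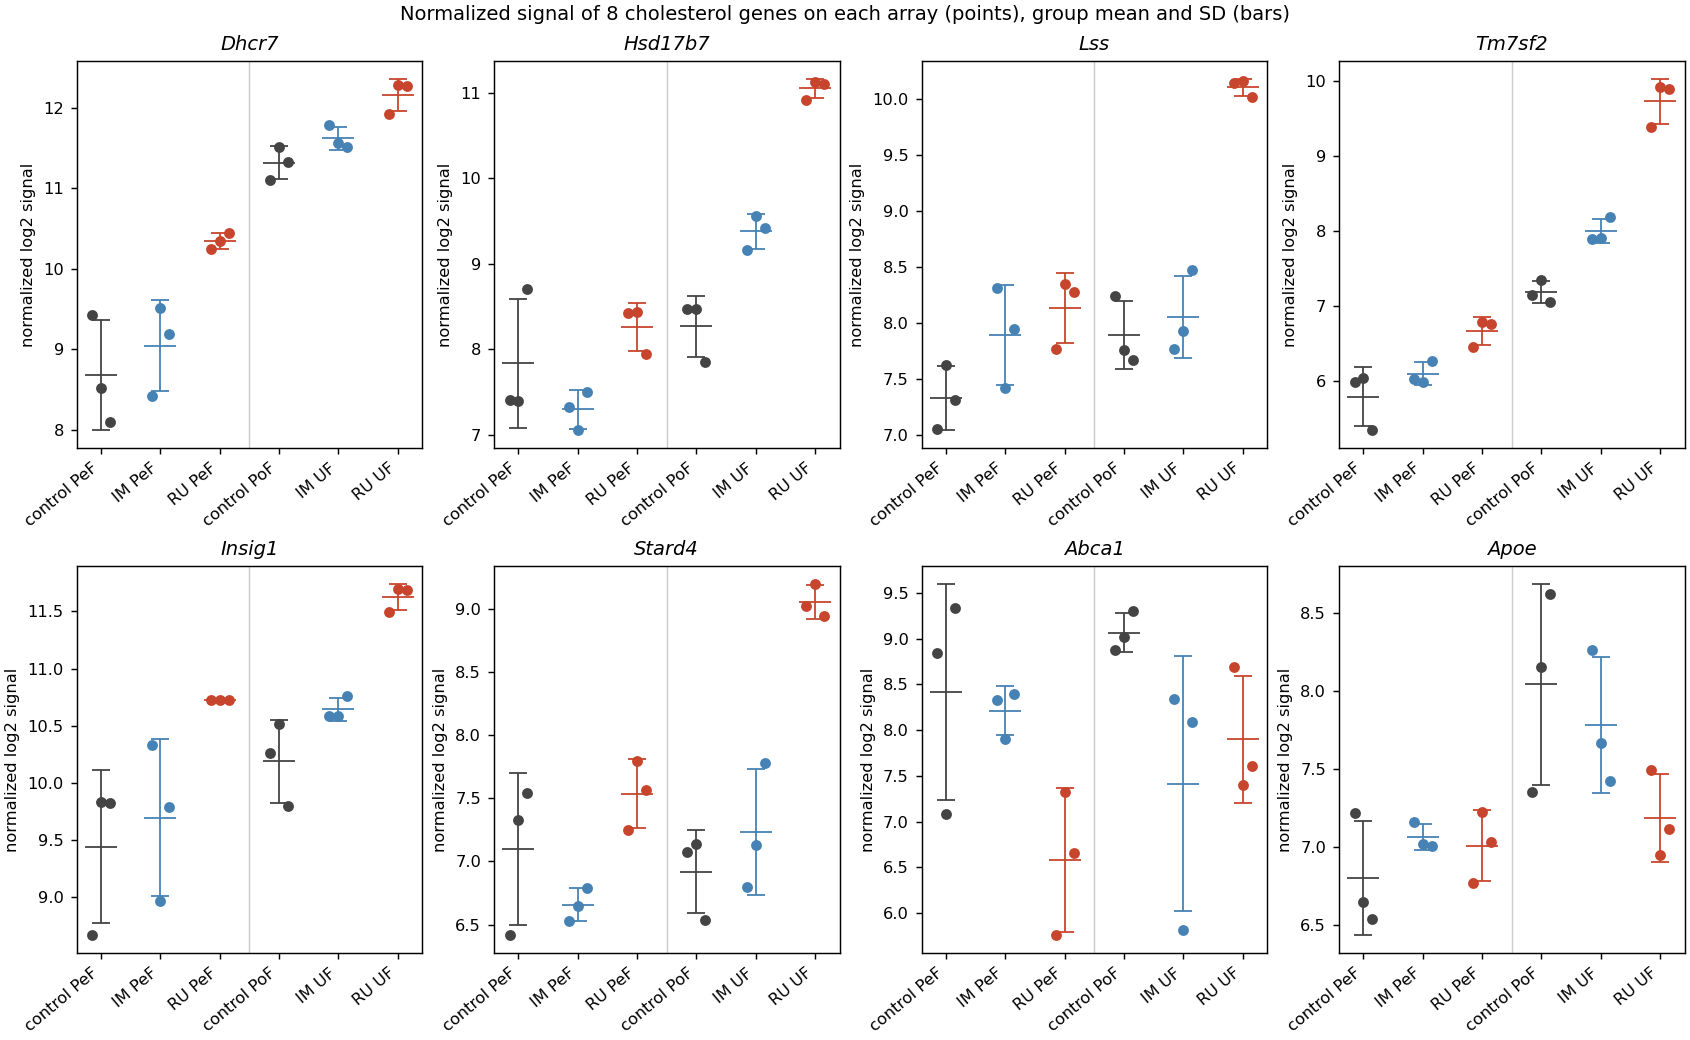
Normalized log2 signal (vertical axis, a separate scale in each panel) of 8 members on each of the 18 arrays (points), with the group mean and SD (bars, n = 3); groups of proestrus stand left of the line and groups of estrus right of it. Hsd17b7, Lss, Tm7sf2 and Stard4 are highest on the 3 RU UF arrays, while Abca1 is at 8.88 to 9.30 in control PoF and at 7.40 to 8.69 in RU UF.

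The RefSeq promoters (build GRCr8) of these 4 genes are shown because the genes moved together; each runs from 250 bases before the annotated start to 50 after it, 5′ to 3′ along the gene. Capitals mark the CCAAT box, read on either strand (ATTGG on the strand shown where the box is on the other one), a short motif bound by the factor NF-Y. Hsd17b7 is at chr13:84722705-84723004, Tm7sf2 at chr1:212789492-212789791, Lss at chr20:12118181-12118480 and Mvd at chr19:67414925-67415224, all on the minus strand.
Hsd17b7: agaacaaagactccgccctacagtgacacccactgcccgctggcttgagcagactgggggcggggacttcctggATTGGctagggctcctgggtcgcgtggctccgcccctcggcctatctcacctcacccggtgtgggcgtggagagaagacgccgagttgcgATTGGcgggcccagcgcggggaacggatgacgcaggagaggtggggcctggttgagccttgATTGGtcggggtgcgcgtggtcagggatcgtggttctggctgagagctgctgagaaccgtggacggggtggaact
Tm7sf2: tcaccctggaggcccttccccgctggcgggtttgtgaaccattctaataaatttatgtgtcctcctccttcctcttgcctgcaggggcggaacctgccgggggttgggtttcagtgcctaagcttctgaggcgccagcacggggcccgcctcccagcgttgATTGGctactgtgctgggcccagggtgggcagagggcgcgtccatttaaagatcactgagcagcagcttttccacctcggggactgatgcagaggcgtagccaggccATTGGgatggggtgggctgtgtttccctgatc
Lss: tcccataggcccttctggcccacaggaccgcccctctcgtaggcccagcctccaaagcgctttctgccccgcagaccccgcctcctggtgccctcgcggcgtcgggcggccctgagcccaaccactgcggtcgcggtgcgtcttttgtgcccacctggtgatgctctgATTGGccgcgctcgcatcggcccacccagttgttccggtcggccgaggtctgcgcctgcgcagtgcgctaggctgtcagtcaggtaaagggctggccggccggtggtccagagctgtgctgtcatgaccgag
Mvd: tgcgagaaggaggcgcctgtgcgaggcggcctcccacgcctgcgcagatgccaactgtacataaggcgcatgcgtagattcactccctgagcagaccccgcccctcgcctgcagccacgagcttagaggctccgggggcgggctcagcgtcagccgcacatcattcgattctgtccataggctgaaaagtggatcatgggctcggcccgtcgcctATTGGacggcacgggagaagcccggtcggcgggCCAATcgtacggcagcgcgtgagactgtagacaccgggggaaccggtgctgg
The box occurred 3 times in Hsd17b7, 2 times in Tm7sf2 and in Mvd, and 1 time in Lss. Promoters were listed for 27 of the 33 measured members, and 20 of them (74.1%) held CCAAT, as did 12 of 15 synthesis genes (80.0%), 1 of 4 efflux genes (25.0%) and 39.6% of 27457 genes in the table. No member window held the sterol regulatory element written as TCACNCCAC or, more loosely, TCACNCNAC, on either strand, and over all genes the shares were 1.25% and 2.75%; every TCACNCCAC is also a TCACNCNAC. With such low shares of the sterol regulatory element over all genes, no match among 27 genes says little about the members. Sites that differ from these written forms were not searched. These are matches of letters, with no test.

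The other synthesis genes of RU UF rose by 0.79 to 1.64. At proestrus Fdps lay at 10.11, 10.39 and 10.19 on the control arrays, 10.84, 10.35 and 10.58 with indomethacin and 11.20, 11.10 and 11.21 with RU486. At estrus Fdps lay at 10.46, 10.55 and 10.22 on the control arrays, 11.13, 11.10 and 11.38 with indomethacin and 11.78, 12.26 and 12.07 with RU486. Fdps, which makes farnesyl diphosphate, lay above the other 5 groups on every RU UF array, and its difference from control PoF was 1.62 ± 0.14, adjusted p = 2.91e-06. At proestrus Sqle was at 8.17, 8.89 and 9.26 on the control arrays, 9.01, 8.49 and 8.99 with indomethacin and 9.56, 9.74 and 9.76 with RU486. At estrus Sqle was at 9.35, 9.47 and 8.89 on the control arrays, 9.56, 9.78 and 9.92 with indomethacin and 10.34, 10.69 and 10.70 with RU486. Sqle, the squalene epoxidase, likewise had its 3 highest values in RU UF (1.34 ± 0.22, adjusted p = 8.53e-04). The 3 synthesis genes without a call were Dhcr7 (0.84 ± 0.27), Idi1 (0.64 ± 0.26) and Ggps1 (0.01 ± 0.21), the last being the enzyme of a side branch towards protein prenylation.

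Among the genes that control synthesis, Insig1, Srebf2 and Srebf1 rose in RU UF and Scap and Insig2 were not called. At proestrus Insig1 lay at 8.67, 9.83 and 9.82 on the control arrays, 10.33, 8.97 and 9.79 with indomethacin and 10.73, 10.73 and 10.73 with RU486. At estrus Insig1 lay at 10.26, 10.51 and 9.80 on the control arrays, 10.58, 10.58 and 10.76 with indomethacin and 11.49, 11.70 and 11.69 with RU486. Insig1, itself a target of the SREBPs, was higher on each RU UF array than on any other, by 1.44 ± 0.29, adjusted p = 0.00461 over control PoF. At proestrus Srebf2 stood at 8.07, 7.99 and 7.97 on the control arrays, 8.37, 8.49 and 8.27 with indomethacin and 8.45, 8.33 and 8.75 with RU486. At estrus Srebf2 stood at 8.49, 8.51 and 8.25 on the control arrays, 8.78, 8.87 and 8.89 with indomethacin and 9.15, 9.52 and 9.28 with RU486. The RU UF values of Srebf2 were the 3 highest (0.90 ± 0.13, adjusted p = 3.51e-04). At proestrus Srebf1 was at 7.68, 7.66 and 7.54 on the control arrays, 7.61, 7.86 and 7.51 with indomethacin and 7.82, 8.14 and 7.88 with RU486. At estrus Srebf1 was at 7.77, 7.68 and 7.70 on the control arrays, 7.72, 7.83 and 7.88 with indomethacin and 8.13, 8.34 and 8.28 with RU486. Srebf1 moved least of the 3 called genes (0.53 ± 0.13, adjusted p = 0.0184). With the signals as deposited its difference turned to -0.18, where the median over all genes was -0.72. The call of Srebf1 was lost without control PoF 2, control PoF 3, RU UF 2 or RU UF 3 (adjusted p up to 0.0845). At proestrus Insig2 measured 6.74, 6.56 and 5.63 on the control arrays, 6.92, 7.22 and 6.52 with indomethacin and 6.48, 6.66 and 7.01 with RU486. At estrus Insig2 measured 8.09, 7.67 and 7.83 on the control arrays, 7.46, 7.15 and 7.20 with indomethacin and 7.20, 7.32 and 7.49 with RU486. Insig2 in RU UF overlapped IM UF and lay below control PoF, with no call (-0.52 ± 0.25, adjusted p = 0.246).

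Of the 3 genes of uptake and transport only Stard4, which carries sterol between membranes, rose in RU UF. At proestrus Stard4 lay at 6.42, 7.33 and 7.54 on the control arrays, 6.53, 6.65 and 6.79 with indomethacin and 7.25, 7.79 and 7.56 with RU486. At estrus Stard4 lay at 7.07, 7.14 and 6.54 on the control arrays, 6.79, 7.13 and 7.78 with indomethacin and 9.02, 9.20 and 8.94 with RU486. All RU UF values of Stard4 exceeded those of all other arrays, and the difference from control PoF was 2.14 ± 0.27, adjusted p = 8.21e-05, or 4.4-fold. Npc2, a carrier of cholesterol in lysosomes (0.55 ± 0.26), and Mylip, which marks lipoprotein receptors for destruction (-0.12 ± 0.24), were not called.

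None of the 5 efflux genes passed the test in RU UF: the export genes Abca1, Abcg1 and Apoe lay lower and the liver X receptor genes Nr1h2 and Nr1h3 higher. At proestrus Abca1 lay at 8.84, 7.08 and 9.33 on the control arrays, 8.33, 7.91 and 8.40 with indomethacin and 5.76, 7.33 and 6.66 with RU486. At estrus Abca1 lay at 8.88, 9.02 and 9.30 on the control arrays, 8.34, 5.81 and 8.09 with indomethacin and 8.69, 7.40 and 7.61 with RU486. Abca1, the transporter that loads cholesterol onto apolipoprotein, was lower on all 3 RU UF arrays than on any control PoF array, and was not called (-1.16 ± 0.59, adjusted p = 0.28). At proestrus Abcg1 was at 6.02, 6.47 and 6.29 on the control arrays, 6.22, 5.78 and 6.25 with indomethacin and 5.45, 5.58 and 5.48 with RU486. At estrus Abcg1 was at 6.13, 6.17 and 6.57 on the control arrays, 6.52, 5.74 and 6.39 with indomethacin and 5.98, 5.21 and 5.10 with RU486. Abcg1, which passes cholesterol to high-density lipoprotein, also did not overlap control PoF (-0.85 ± 0.26, adjusted p = 0.053). At proestrus Apoe stood at 7.22, 6.65 and 6.54 on the control arrays, 7.16, 7.02 and 7.01 with indomethacin and 6.77, 7.23 and 7.03 with RU486. At estrus Apoe stood at 7.35, 8.15 and 8.62 on the control arrays, 8.26, 7.66 and 7.42 with indomethacin and 7.49, 6.95 and 7.11 with RU486. Apoe, the lipoprotein component, overlapped control PoF only through control PoF 1 (-0.86 ± 0.28, adjusted p = 0.0701). At estrus Nr1h2 lay at 6.58, 6.68 and 6.83 in control PoF and at 7.13, 7.33 and 7.18 in RU UF, which did not overlap, with no call (0.52 ± 0.21, adjusted p = 0.145). Nr1h3 overlapped (0.27 ± 0.42, adjusted p = 0.794). Abcg1 was called lower without control PeF 3, IM PeF 2, IM UF 2 or RU UF 1 (adjusted p = 0.0174 for the last), and Apoe without control PeF 3 or control PoF 1 (adjusted p = 0.0125 for the latter). Without the 3 dimmest arrays Abcg1 (-0.86, adjusted p = 0.014) and Apoe (-0.86, adjusted p = 0.0481) were called lower.

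At proestrus Soat1 lay at 9.02, 9.44 and 9.43 on the control arrays, 9.35, 8.76 and 9.25 with indomethacin and 9.48, 9.04 and 8.98 with RU486. At estrus Soat1 lay at 10.00, 9.87 and 9.98 on the control arrays, 10.18, 9.51 and 9.58 with indomethacin and 10.49, 10.20 and 10.14 with RU486. Soat1, which esterifies cholesterol for storage, lay just above control PoF on all 3 RU UF arrays and was not called in RU UF against control PoF (0.33 ± 0.19, adjusted p = 0.369).

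With the signals as deposited, no member was called in RU UF against control PoF. The median over all genes was then -0.72, the synthesis median 0.79 and the efflux median -1.53, and all 18 synthesis genes lay above the median of all genes. Of 7 theca markers 2 rose and 3 fell, granulosa markers rose in 3 of 11 (among them Cyp19a1, 3.42 ± 0.49), 1 of 9 endothelial markers fell, and none of 11 smooth muscle or 8 macrophage markers was called. An unadjusted limma p under 0.05 was reached by 7 of 11 smooth muscle, 5 of 9 endothelial and 3 of 8 macrophage markers. Of all 10386 tested genes 2435 reached it. The medians of these 3 marker lists were -0.64, -0.57 and -0.70, with 2, 1 and 3 markers above 0. Both tested markers of the ovarian surface epithelium fell (Krt8 -1.23 ± 0.32, Krt18 -2.05 ± 0.61). Summed granulosa markers were at 14.4 to 14.5 in RU UF and at 14.1 to 14.3 in control PoF, and smooth muscle markers at 10.5 to 10.6 against 10.6 to 11.0. Their part in the result was not tested.

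Synthesis genes also rose at 22:00 of proestrus, in follicles before rupture, though not all were those called at estrus. In RU PeF against control PeF 12 of 18 synthesis genes rose and none fell, with a median of 0.80, against 3.79% of all tested genes higher and 4.75% lower. Of these 12 genes 10 (83.3%) were also among the 15 that rose at estrus (66.7% of those). With 12 and 15 of the same 18 genes called, a large overlap was bound to occur and does not measure agreement between the times. The share of all genes called at both times is not given here. Dhcr7 and Idi1 were called at proestrus but not at estrus, and Acat2, Mvd, Hsd17b7, Ebp and Sc5d at estrus but not at proestrus. Dhcr7, the last reductase of the pathway, differed most (1.67 ± 0.27, adjusted p = 0.00109, 3.17-fold), followed by Idi1, which isomerizes isopentenyl diphosphate (1.05 ± 0.26, adjusted p = 0.0188), Fdps (0.94 ± 0.14, adjusted p = 5.81e-04) and Sqle (0.91 ± 0.22, adjusted p = 0.0183). Insig1 (1.29 ± 0.29, adjusted p = 0.0125) and Srebf2 (0.50 ± 0.13, adjusted p = 0.0307) rose, and Srebf1, Scap and Insig2 were not called.

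At proestrus Dhcr7 lay at 9.43, 8.52 and 8.09 on the control arrays, 8.42, 9.52 and 9.19 with indomethacin and 10.25, 10.35 and 10.45 with RU486. The RU PeF values of Dhcr7 lay above all 6 other arrays of that time. At estrus Dhcr7 lay at 11.10, 11.52 and 11.33 on the control arrays, 11.79, 11.57 and 11.52 with indomethacin and 11.93, 12.28 and 12.27 with RU486. The RU UF values also lay above all 6 other arrays of estrus, with group means of 11.32 in control PoF, 11.62 in IM UF and 12.16 in RU UF. The difference of RU UF from control PoF was not called. Mylip was the only member that fell in RU PeF (-0.84 ± 0.24, adjusted p = 0.0373), from 5.90, 5.96 and 5.66 in control PeF to 5.15, 4.99 and 4.86.

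Of 5 efflux genes 1 was called in RU PeF against control PeF, and 2 lay above 0. Nr1h2, a liver X receptor, rose (0.84 ± 0.21, adjusted p = 0.0194), while Abca1 (-1.84 ± 0.59, adjusted p = 0.0679), Abcg1 (-0.76 ± 0.26, adjusted p = 0.0912) and Nr1h3 (-0.99 ± 0.42, adjusted p = 0.165) were lower without a call, and the list median was -0.76. Abca1 was called lower without control PeF 2 (adjusted p = 0.0149) or IM UF 2 (adjusted p = 0.0267). A dimmer probe set of Abca1 was called lower (-1.48 ± 0.40, adjusted p = 0.0306). Neither storage gene was called (Soat1 -0.13 ± 0.19, Lipe 0.37 ± 0.68), nor were Npc2 (0.46 ± 0.26) and Stard4 (0.44 ± 0.27).

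**Figure D2:**
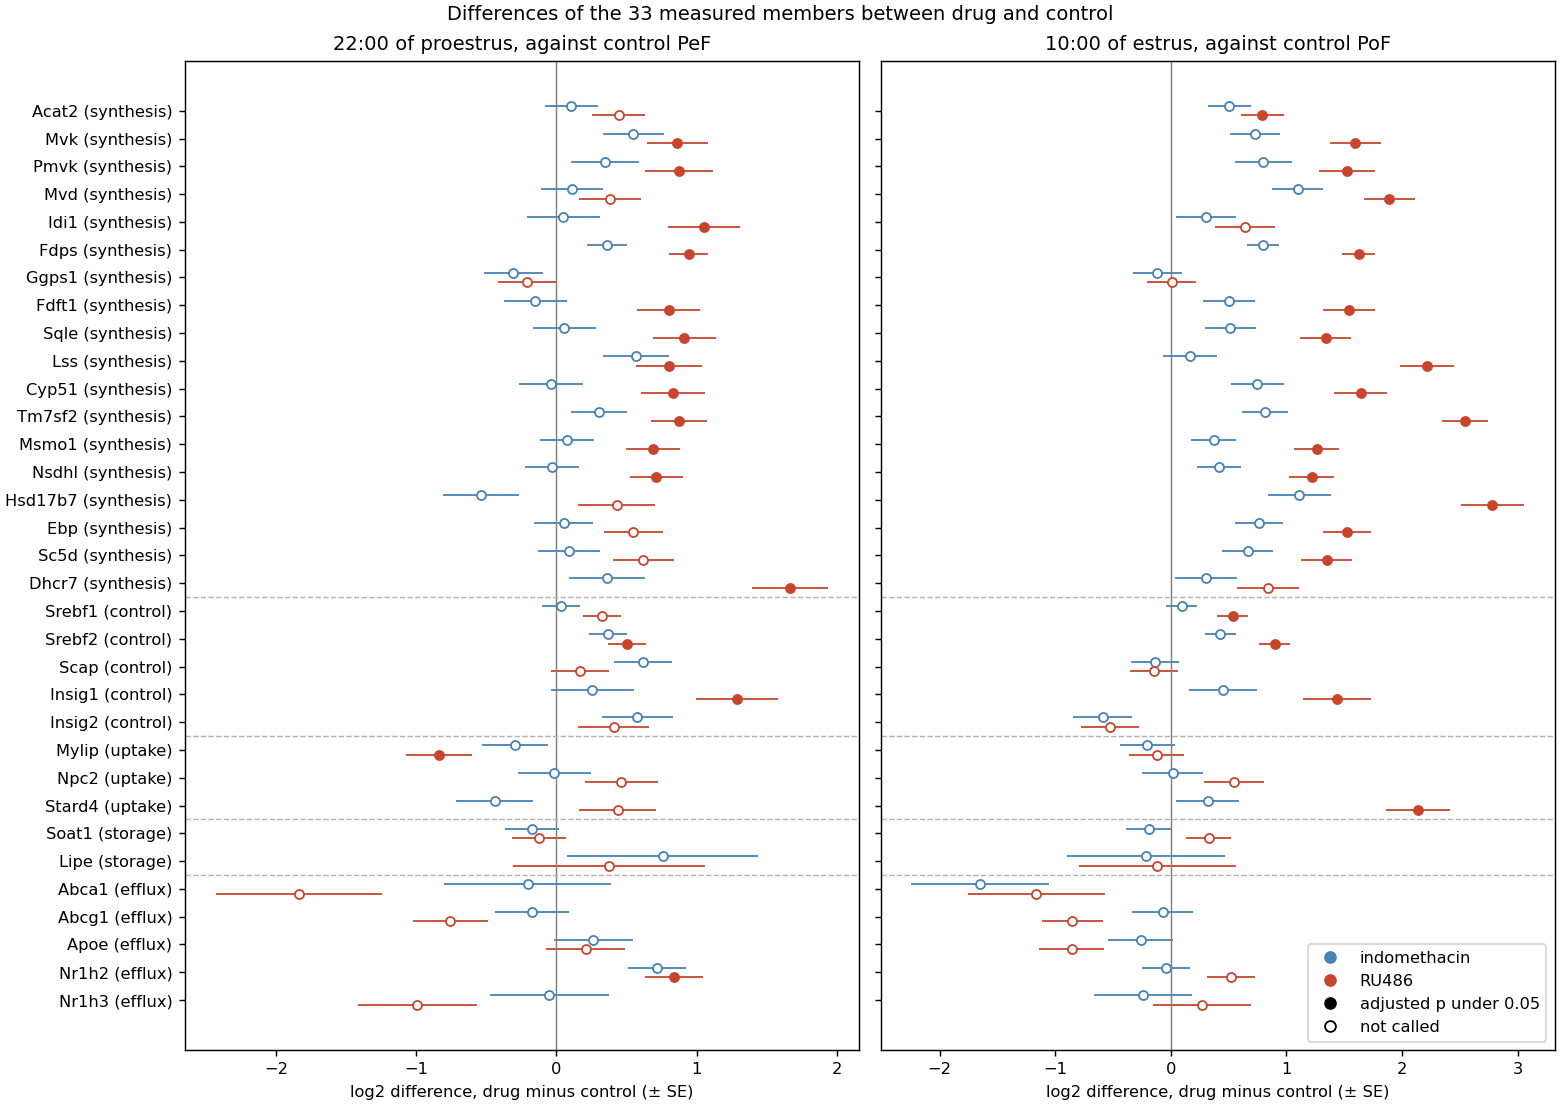
Difference of each of the 33 measured members between drug and control in log2 units (horizontal axis, points with SE bars, limma over 18 arrays), at proestrus (left) and estrus (right); filled points have an adjusted p under 0.05. With RU486 12 synthesis genes are filled at proestrus and 15 at estrus, all to the right of 0, and with indomethacin no member is filled; with the signals as deposited none is filled in any panel.

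These proestrus calls rested on few arrays. The count of members called went from 16 to 7 without RU PeF 1, 5 without RU PeF 2, 3 without RU PeF 3 and 7 without control PeF 1, and it was 10 without a filter on dim probe sets and 3 in a fit of only the groups compared. Dhcr7, Fdps and Insig1 kept their calls without any 1 of the 18 arrays. Idi1 and Sqle lost theirs without control PeF 1, RU PeF 2 or RU PeF 3, Srebf2 without control PeF 2, control PeF 3, RU PeF 1 or RU PeF 3, Nr1h2 without control PeF 1, RU PeF 1 or RU PeF 3, and Mylip without control PeF 1, control PeF 2, control PoF 2 or any RU PeF array. With the signals as deposited none was called, the median over all genes was 0.83 and the synthesis median 1.67, and 17 of 18 synthesis genes lay above the median of all genes. At the same time 5 of 11 smooth muscle markers fell in RU PeF (Tagln -1.80 ± 0.24), as did 3 of 7 theca markers (Pdgfra -2.09 ± 0.23), 2 of 9 endothelial markers and 3 of 8 macrophage markers, while another macrophage marker, Cd14, rose (2.19 ± 0.33). Summed smooth muscle markers were at 8.76 to 9.02 in RU PeF against 9.83 to 10.3 in control PeF, and granulosa markers at 14.3 to 14.8 against 14.1 to 14.7, with 1 of 11 higher and 2 lower. Their part in the result was not tested.

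The difference between RU486 and control grew from proestrus to estrus for 5 members. Tested as the difference of the 2 effects, Hsd17b7 (2.35 ± 0.39, adjusted p = 0.00202), Stard4 (1.70 ± 0.39, adjusted p = 0.0196), Tm7sf2 (1.68 ± 0.28, adjusted p = 0.00275), Mvd (1.51 ± 0.31, adjusted p = 0.0105) and Lss (1.41 ± 0.33, adjusted p = 0.0238) had a larger effect at estrus and none a smaller one, against 2.27% of all genes higher and 2.18% lower. Hsd17b7 and Stard4, for example, differed from control by 0.43 ± 0.27 and 0.44 ± 0.27 at proestrus and by 2.78 ± 0.27 and 2.14 ± 0.27 at estrus. Among the control PeF arrays Hsd17b7 lay at 7.41, 7.40 and 8.70, the last on control PeF 3, the dimmest array. Without any 1 array, the difference of the 2 effects of Hsd17b7 was 1.92 at lowest and kept its call. The synthesis median of this difference was 0.71 and that of all genes -0.09. Dhcr7 lay the other way without a call (-0.82 ± 0.38, adjusted p = 0.25). The count was 3 without control PoF 3, RU PeF 1 or RU UF 2, 8 without control PeF 3, 9 without the 3 dimmest arrays, 15 with array quality weights and 1 with median scaling. Stard4 lost its call without control PoF 3, RU PeF 1 or RU UF 2, and Lss without control PoF 2, control PoF 3, RU PeF 1, RU UF 1 or RU UF 2. With the signals as deposited none was called, Mvd (-0.14) and Lss (-0.19) turned, and the median over all genes was -1.54. For indomethacin no member was called in the same test, Hsd17b7 being highest (1.65 ± 0.39, adjusted p = 0.279).

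Indomethacin gave no call among the 33 members at either time. In IM PeF against control PeF 0% of tested genes rose and 0% fell; 7 members and 1156 of 10386 genes had an unadjusted p under 0.05, and the synthesis median was 0.08. In IM UF against control PoF 0% of genes rose and 0.0481% fell, while 16 members and 779 genes had an unadjusted p under 0.05. There the synthesis median was 0.59 against 0.00 for all genes, and 17 of 18 synthesis genes were above 0. In 13 of 18 all 3 IM UF arrays exceeded all 3 control PoF arrays, but the share of all genes that did so is not given here. Among the larger differences were Mvd (1.10 ± 0.22, adjusted p = 0.0915), Hsd17b7 (1.11 ± 0.27, adjusted p = 0.205), Tm7sf2 (0.81 ± 0.20, adjusted p = 0.207) and Fdps (0.80 ± 0.14, adjusted p = 0.0553). Of the efflux genes Abca1 was lowest (-1.65 ± 0.59, adjusted p = 0.535) and the median was -0.24; without IM UF 2, a dim array, Abca1 differed by -0.85. The change of the indomethacin effect between the times was called in 0% of genes in either direction, with 8 members and 950 genes at an unadjusted p under 0.05. Without control PeF 3, 3 members were called in IM UF. There 1 was called without control PeF 1, IM PeF 1, IM PeF 2, IM UF 1 or RU UF 1. Array quality weights gave 5 called members in IM PeF, 8 in IM UF and 5 in the change of the effect. These weights raised the count of members in every other comparison too, as in RU UF against control PoF (19 to 26). The share of all genes called with these weights is not given here, so whether the rise was particular to the members was not tested. With the signals as deposited the synthesis median of IM UF was -0.18 and that of all genes -0.76.

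The drugs were compared directly at each time, though dose, hour of dosing and target differed. In RU PeF against IM PeF 9 members rose and none fell, against 2.19% of genes higher and 3.85% lower. They included Dhcr7 (1.30 ± 0.27), Idi1 (1.00 ± 0.26), Hsd17b7 (0.97 ± 0.27), Fdft1, the squalene synthase (0.95 ± 0.22), and Insig1 (1.03 ± 0.29). All 18 synthesis genes were above 0, with a median of 0.57. The count was 1 without IM PeF 2, RU PeF 2 or RU PeF 3, 2 without RU PeF 1, 5 without IM PeF 3, 4 without the 3 dimmest arrays, 5 with the mean of all probe sets of a gene, 20 with array quality weights and 0 with the signals as deposited. Of the genes named, Dhcr7 kept its call without any 1 array. Idi1 and Fdft1 lost theirs without IM PeF 2, RU PeF 2 or RU PeF 3, Idi1 also without RU PeF 1, Insig1 on leaving out any 1 of 13 arrays and Hsd17b7 any 1 of 14; without IM PeF 2 Insig1 differed by 0.67. In RU UF against IM UF 14 members rose and none fell, against 3.48% of genes higher and 4.38% lower, led by Lss (2.05 ± 0.24, adjusted p = 5.09e-05), Stard4 (1.82 ± 0.27, adjusted p = 5.70e-04), Tm7sf2 (1.73 ± 0.20, adjusted p = 5.10e-05), Hsd17b7 (1.67 ± 0.27, adjusted p = 0.00104) and Fdft1 (1.04 ± 0.22, adjusted p = 0.00831). Srebf2 was the only called gene among those that control synthesis (0.47 ± 0.13, adjusted p = 0.0424). Again all 18 synthesis genes were above 0, with a median of 0.81. The count was 7 without RU UF 2 or RU UF 3, 8 without IM UF 1 and 9 without IM UF 2 or IM UF 3, 4 with arrays scaled to 1 median and 0 without normalization. The call of Srebf2 was lost without any 1 of 10 arrays. No efflux gene was called at either time (Abca1 -1.63 ± 0.59 and 0.49 ± 0.59, Abcg1 -0.58 ± 0.26 and -0.78 ± 0.26). Without IM UF 2 the estrus difference of Abca1 turned to -0.31 (adjusted p = 0.857), and Abcg1 was called lower without IM UF 2 (-1.03, adjusted p = 0.0469) or RU UF 1 (-1.06, adjusted p = 0.0299). Star, which brings cholesterol into mitochondria for steroid synthesis, was higher with RU486 than with indomethacin at both times (0.82 ± 0.14 and 1.70 ± 0.14).

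**Figure D3:**
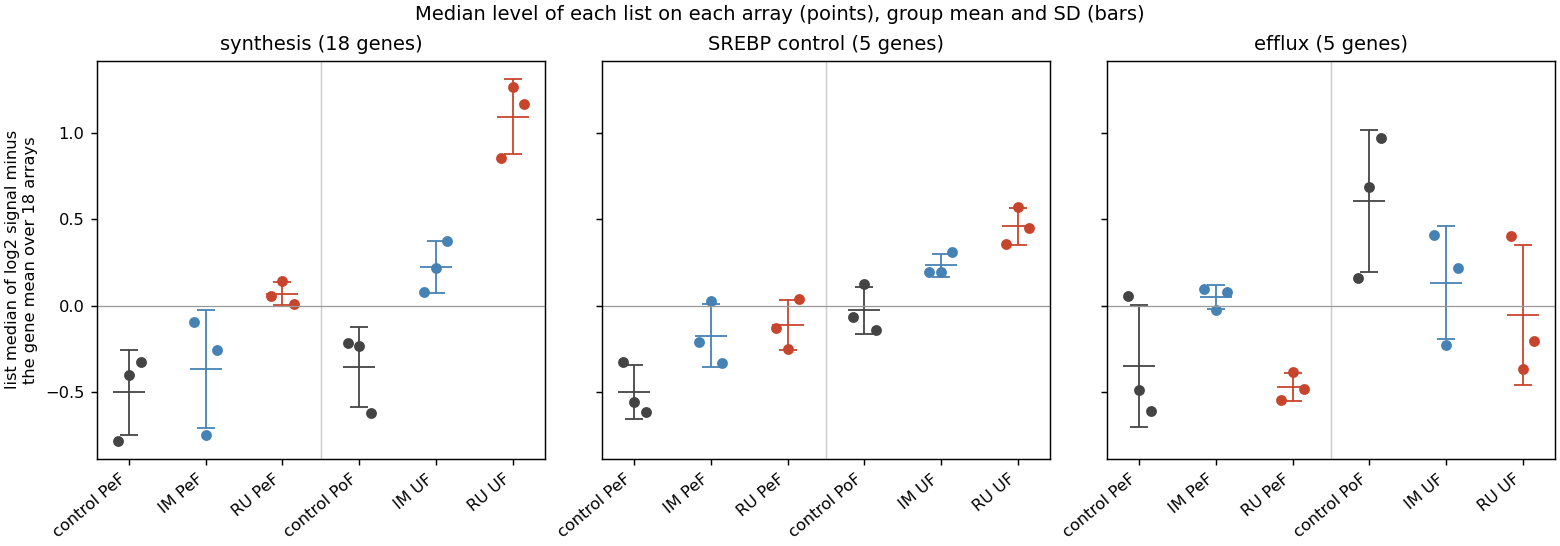
Median over the genes of a list of the log2 signal minus each gene's mean over 18 arrays (vertical axis), for each array (points), with the group mean and SD (bars, n = 3), for 18 synthesis, 5 control and 5 efflux genes. The synthesis median is 0.85 to 1.27 on the RU UF arrays and at most 0.37 on any other array, whereas the group mean of the efflux median is highest in control PoF.

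Without drug, the passage from control PeF to control PoF changed the members less evenly. Of 33 members 13 rose and 1 fell, against 24.5% of all genes higher and 19.7% lower. Of 18 synthesis genes 5 rose, led by Dhcr7 (2.64 ± 0.27, adjusted p = 1.07e-06), Tm7sf2 (1.39 ± 0.20, adjusted p = 3.68e-05), Pmvk (0.75 ± 0.24, adjusted p = 0.02) and Mvk (0.72 ± 0.22, adjusted p = 0.0138), which phosphorylate mevalonate in sequence. Nsdhl, a sterol dehydrogenase, fell (-0.60 ± 0.19, adjusted p = 0.0186). With the signals as deposited Nsdhl lay higher (0.87), where the median over all genes was 1.38. The synthesis median was 0.17 against 0.08 for all genes. Insig2 (1.55 ± 0.25, adjusted p = 1.17e-04), Scap (1.31 ± 0.21, adjusted p = 8.90e-05) and Srebf2 (0.41 ± 0.13, adjusted p = 0.0221) rose. As the mean over all its probe sets, Srebf2 stood at -0.03. Without control PeF 3 the calls of Mvk (0.45), Pmvk (0.41), Nsdhl and Srebf2 were lost. They were also lost without control PoF 2 (Mvk, Pmvk and Srebf2), control PoF 1 (Pmvk and Srebf2), control PoF 3 (Nsdhl) or control PeF 2 (Srebf2).

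Both storage genes and 3 of 5 efflux genes rose along with them. Lipe, a lipase that also frees cholesterol from its esters, went from 5.22, 5.31 and 2.07 in control PeF to 6.63, 7.00 and 6.80 in control PoF (2.61 ± 0.68, adjusted p = 0.00557), and Soat1 rose by 0.65 ± 0.19. Without control PeF 3, the dimmest array, Lipe differed by 1.56 (adjusted p = 0.0247), and without control PeF 1 Soat1 was not called (adjusted p = 0.0524). Of the 5 efflux genes, Apoe (1.24 ± 0.28, adjusted p = 0.00202), Nr1h3 (1.09 ± 0.42, adjusted p = 0.0484) and Nr1h2 (0.62 ± 0.21, adjusted p = 0.0246) rose, while Abca1 (0.65 ± 0.59) and Abcg1 (0.03 ± 0.26) were not called. None of the 3 uptake and transport genes was called. The call of Nr1h2 was lost without control PeF 1, control PoF 2 or control PoF 3, and that of Nr1h3 without any 1 of 14 arrays. The count of members called fell from 14 to 8 without control PoF 2 and in a fit of only the groups compared, and was 22 with array quality weights. The median over all genes was 1.38 with the signals as deposited, and 19 members were then called higher. Markers shifted at the same time, with 7 of 11 smooth muscle markers higher and 1 lower, 4 of 11 granulosa markers higher and 4 lower, and 3 of 7 theca markers lower and 1 higher; their part in the result was not tested.

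Members also rose over the same interval in the treated groups, which ended in unruptured follicles. From RU PeF to RU UF 19 of 33 members rose and none fell, 11 of them synthesis genes, against 21.3% of genes higher and 21.4% lower. Tm7sf2 (3.07 ± 0.20, adjusted p = 7.63e-09), Hsd17b7 (2.78 ± 0.27, adjusted p = 5.18e-07), Lss (1.97 ± 0.24, adjusted p = 4.40e-06) and Dhcr7 (1.81 ± 0.27, adjusted p = 4.37e-05) led. Scap (1.00 ± 0.21), Insig1 (0.90 ± 0.29), Srebf2 (0.80 ± 0.13), Stard4 (1.52 ± 0.27), Mylip (0.93 ± 0.24), Soat1 (1.11 ± 0.19), Lipe (2.12 ± 0.68) and the liver X receptor gene Nr1h3 (2.35 ± 0.42) rose too. Lipe lost its call without RU PeF 2 (1.37, adjusted p = 0.131) or RU UF 3 (1.90, adjusted p = 0.0724), and Insig1 without any RU PeF array, RU UF 2 or RU UF 3 (adjusted p up to 0.0615). From IM PeF to IM UF 13 members rose and none fell, 9 of them synthesis genes, against 19.4% of genes higher and 18.5% lower. Dhcr7 (2.58 ± 0.27, adjusted p = 1.40e-06), Hsd17b7 (2.08 ± 0.27, adjusted p = 1.53e-05), Tm7sf2 (1.90 ± 0.20, adjusted p = 1.51e-06) and Ebp, the sterol isomerase (1.31 ± 0.21, adjusted p = 1.20e-04), led, and Insig1 (0.95 ± 0.29), Scap (0.56 ± 0.21), Srebf2 (0.47 ± 0.13) and Soat1 (0.64 ± 0.19) rose. Insig1 lost its call without IM PeF 2 (0.58, adjusted p = 0.109) or IM UF 3, Soat1 without IM PeF 2 or IM UF 1, Srebf2 without IM PeF 3, and Scap without any 1 of 14 arrays. As the mean over all its probe sets, Soat1 turned to -0.41. With the signals as deposited 3 members were called from RU PeF to RU UF and 1 from IM PeF to IM UF. The synthesis medians were 0.88 and 0.53, and the efflux medians 0.30 and 0.13. Dhcr7, Tm7sf2, Mvk, Pmvk, Ebp, Srebf2, Scap and Soat1 rose over this interval in control, indomethacin and RU486 follicles. Of all tested genes 24.5%, 19.4% and 21.3% rose in the same order. The share that rose in all of them is not given here, so whether this was particular to the members was not tested. In control follicles the call of Ebp (0.60, adjusted p = 0.0308) was lost without control PeF 3 or any control PoF array. The test of a difference between the intervals is the change of each drug's effect given above.

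**Figure D4:**
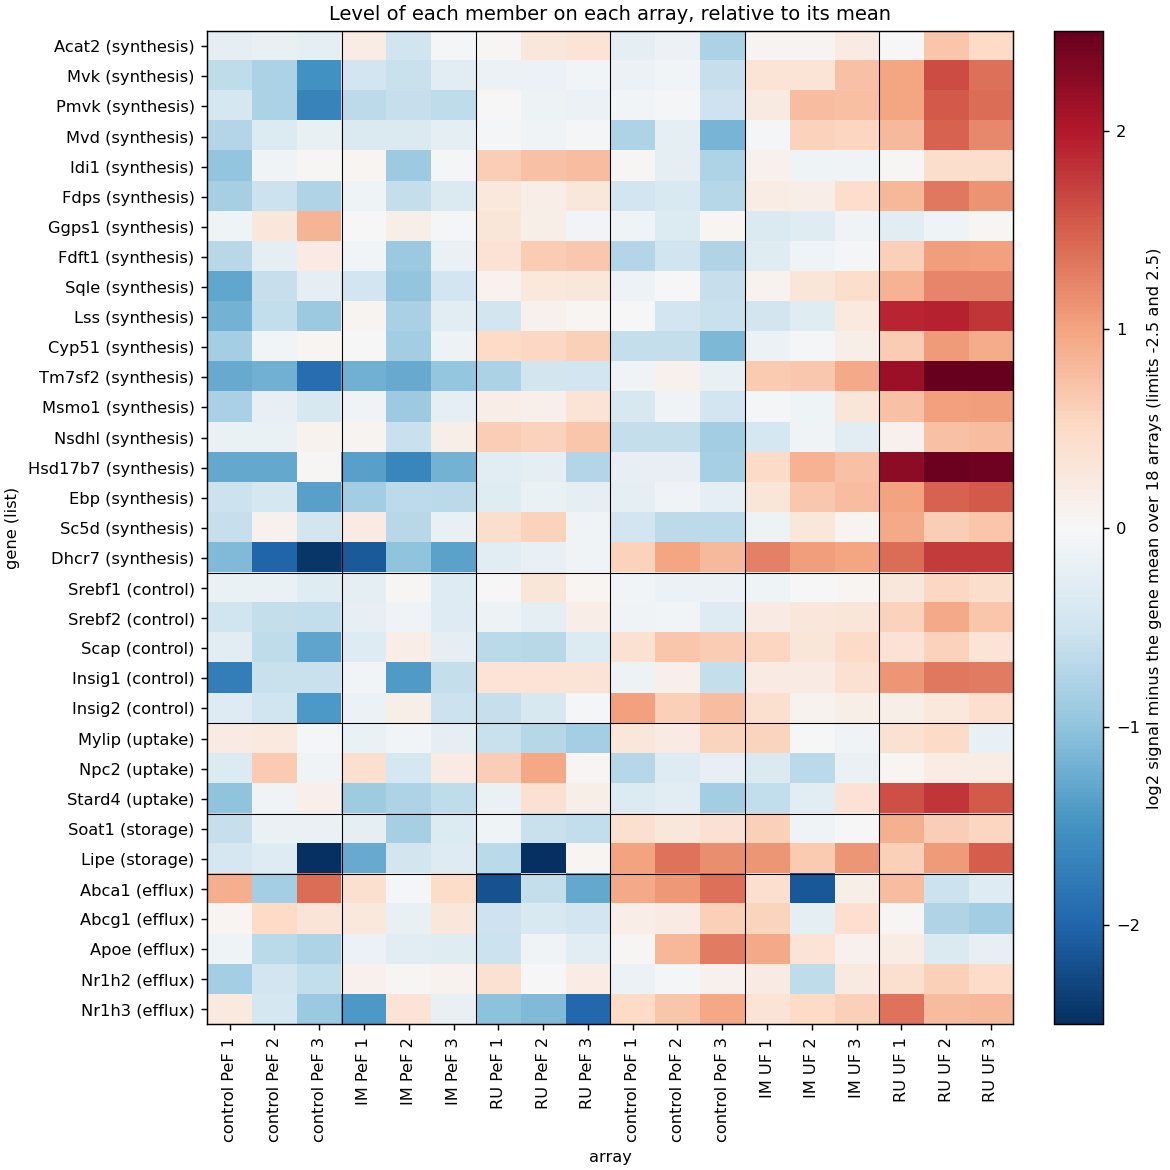
Log2 signal of each measured member minus its mean over 18 arrays (colour, limits -2.5 and 2.5), with genes in rows by list and arrays in columns by group. Of 18 synthesis rows 15 have their highest group mean in RU UF, led by Tm7sf2 and Hsd17b7, while Idi1 and Nsdhl are highest in RU PeF and Ggps1 in control PeF; the Abca1 row is reddest in control PoF and in control PeF 1 and 3.

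Genes next to the pathway were counted in further lists, to be read against the shares of all tested genes: 4.53% higher and 5.49% lower in RU UF, and 3.79% higher and 4.75% lower in RU PeF. The fatty acid synthesis list, also driven by SREBPs, had 8 of 14 genes higher and none lower in RU UF against control PoF, with Fasn, the fatty acid synthase (1.44 ± 0.15, adjusted p = 1.23e-05), and Elovl6, which lengthens fatty acids (2.20 ± 0.30, adjusted p = 1.12e-04). At proestrus 1 of 14 rose with RU486 (Mid1ip1, 1.18 ± 0.21, adjusted p = 0.00211), and Fasn (1.28 ± 0.21, adjusted p = 0.00191) and Elovl6 (1.75 ± 0.42, adjusted p = 0.0244) had a larger effect at estrus. Of 6 genes that process or degrade SREBP regulators 1 rose in RU UF (Syvn1, 0.48 ± 0.14, adjusted p = 0.0422) and none was called in RU PeF. Of 12 further genes of uptake and transport 3 rose and 1 fell in RU UF, with Vldlr, a lipoprotein receptor, lower (-1.66 ± 0.20, adjusted p = 4.93e-05) and Scp2, a sterol carrier, higher (0.99 ± 0.20, adjusted p = 0.00431); in RU PeF 1 rose and 2 fell, among them Osbpl8 (-0.94 ± 0.16, adjusted p = 0.00198). Of 11 further genes of efflux and storage none was called in RU UF. An unadjusted p under 0.05 was reached by 2 of these 11 and by 2435 of all 10386 tested genes. In RU PeF 2 of them rose and 1 fell: Plin2, which coats lipid droplets (1.46 ± 0.29, adjusted p = 0.00531), was higher and Cyp27a1, which makes an oxysterol that activates liver X receptors (-1.88 ± 0.47, adjusted p = 0.0207), lower.

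Of 8 genes of steroid synthesis, the use that follicles make of cholesterol, 4 rose and none fell in RU UF against control PoF (4.53% and 5.49% of all tested genes). Star (1.95 ± 0.14, adjusted p = 5.89e-07) and the aromatase gene Cyp19a1 (3.42 ± 0.49, adjusted p = 2.44e-04) had the smallest adjusted p. In RU PeF 1 of 8 rose (Star, 0.90 ± 0.14, adjusted p = 8.96e-04) and 1 fell (Tspo, -1.06 ± 0.24, adjusted p = 0.0116), against 3.79% and 4.75% of all tested genes. With indomethacin no gene of these 5 lists was called against the control of either time.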

How the data were processed

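The authors deposited 1 intensity per probe set and array, as linear signals that go no lower than 1. The submitters' processing notes name MAS5; its role and scaling are stated by no source used here. Of 31099 probe sets, 57 control probe sets were left out, signals were quantile-normalized, and log2 was taken after adding 2.79, the 20th percentile of all values, which understates changes of dim genes. A probe set entered the test (18155 did) where 3 or more of the 18 arrays had it above their own median. All 18 arrays entered 1 limma model (version 3.58.1, R 4.3.3) of 6 group means with a variance trend and 12 residual degrees of freedom; p-values were adjusted by Benjamini-Hochberg within each of 11 comparisons at 0.05. With 3 samples a side, exact permutation gives no two-sided p under 0.1, so single genes rest on limma. Shares of all genes are over the 10386 tested genes, 1 probe set each. The number of arrays limits the precision.

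Members and lists were chosen with earlier results of these data known. Named were up to 4 called members with the largest difference per list and comparison and 12 measured members throughout; uncalled members of small counts were named after their values were seen. In lists of neighbouring genes up to 2 with the smallest adjusted p were named. The fit was tested on simulated data. Promoters came from RefSeq (GRCr8). Figures were drawn with matplotlib 3.10.9.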

Additional observations from a re-analysis of the deposited data

Results flagged for a closer look

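The difference between RU486 and control at estrus minus that at proestrus, tested in limma as a difference of differences, passed an adjusted p of 0.05 for 5 members. The values were 2.35 for Hsd17b7, 1.70 for Stard4, 1.68 for Tm7sf2, 1.51 for Mvd and 1.41 for Lss, in log2 units. Follicles of the later time had ruptured in controls and not with RU486.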

How the results depend on the processing

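Counts of members called in either direction, out of 33, moved with the signals as deposited to 0 in RU PeF and in RU UF against control, 1 from IM PeF to IM UF, 3 from RU PeF to RU UF, 0 in both comparisons of the drugs and 0 in the change of the RU486 effect. The differences that turned were those of Nsdhl from control PeF to control PoF (0.87), Srebf1 in RU UF against control PoF (-0.18), and Mvd (-0.14) and Lss (-0.19) in the change of the RU486 effect. The medians over all genes were then 1.38, -0.72 and -1.54 in these 3 comparisons. With median scaling the counts were 4 in RU UF against IM UF and 1 in the change of the RU486 effect. Raising the pseudocount to the median signal gave 1 in IM UF against control PoF. Without a filter on dim probe sets 10 were called in RU PeF against control. With the mean of all probe sets of a gene the count in RU PeF against IM PeF was 5, Srebf2 turned to -0.029 from control PeF to control PoF, and Soat1 to -0.41 from IM PeF to IM UF. A fit of only the groups compared gave 8 from control PeF to control PoF and 3 in RU PeF against control. Array quality weights gave 22 from control PeF to control PoF, 5 for indomethacin at proestrus, 8 for it at estrus, 22 from IM PeF to IM UF, 20 in RU PeF against IM PeF, 5 in the change of the indomethacin effect and 15 in that of RU486. Without the 3 dimmest arrays the counts were 1 in IM UF against control, 4 in RU PeF against IM PeF and 9 in the change of the RU486 effect. The shares of all genes called under these settings are not given here, and the cause of these moves was not tested.

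Leaving out each array in turn gave 8 to 16 calls from control PeF to control PoF, 0 to 0 for indomethacin and 3 to 16 for RU486 at proestrus, 0 to 3 and 17 to 22 at estrus, 11 to 15 from IM PeF to IM UF and 17 to 20 from RU PeF to RU UF. It gave 1 to 11 in RU PeF against IM PeF, 7 to 17 in RU UF against IM UF, 0 to 0 in the change of the indomethacin effect and 3 to 8 in that of RU486. Whether replicate numbers pair samples is not known. Deviations from group means correlated at -0.30 to 0.12 between same-numbered arrays of different groups, over 0.1 in 1 of 45 pairs. Between arrays of other numbers they correlated at -0.14 to 0.27, over 0.1 in 5 of 90 pairs. With means of only 3 arrays, these correlations cannot decide whether samples were paired. With the replicate number as a block the counts were 13 from control PeF to control PoF, 0 for indomethacin and 15 for RU486 at proestrus, 0 and 19 at estrus, 12 from IM PeF to IM UF, 19 from RU PeF to RU UF, 7 in RU PeF against IM PeF, 13 in RU UF against IM UF, and 0 and 5 in the changes of the effects. Other probe sets of called members had the same sign in 11 of 11 cases for RU UF against control PoF (7 called), 6 of 6 for RU PeF against control PeF (2 called), 8 of 8 for RU UF against IM UF (5 called) and 5 of 5 for RU PeF against IM PeF (1 called). They had it in 4 of 6 from control PeF to control PoF (1 called), 3 of 4 from IM PeF to IM UF (0 called), 6 of 8 from RU PeF to RU UF (1 called) and 3 of 4 for the change of the RU486 effect (1 called).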
